A study of Homo sapiens with 66 samples.

Results

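The comparison described here sets the last day of neural determination culture, NeuDet-D6, against the day before it, NeuDet-D5, in human cells on the way to spinal cord neural progenitors. Its libraries were taken by their labels, 3 from D6 and 3 from D5, which makes 6 of the 66 libraries of the series, and every gene that passed a filter on low counts was tested. The study differentiated the human embryonic stem cell line H9 into neuromesodermal progenitors (hNMP) and from there into spinal cord neural progenitor cells (hSCNPC), which were passaged and made into motor neurons. Bulk RNA was sequenced at each stage.

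All 6 libraries came from wild-type H9 cells, so from 1 line, under the treatment that the labels call neural differentiation. The cells labelled hSCNPCs had been in NeuDet medium for 6 days and those labelled differentiating hSCNPCs for 5 days. By the study's methods both groups were kept in the same medium, which held inhibitors of both SMAD branches (SB431542 and Dorsomorphin), FGF2, FGF8, the GSK3 inhibitor CHIR99021 and Compound E, a gamma-secretase inhibitor that blocks Notch cleavage. The groups therefore differ by 1 day of culture and share every agent. Nothing in the labels says if the 3 libraries of each day are separate cultures, so the spread between them may be technical. The p-values rest on the spread within groups over all 48 libraries of a shared fit.

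Neuromesodermal progenitors of the posterior embryo supply the cells of the spinal cord, and the HOX genes that these cells switch on, in order along their clusters, set how far back along the body axis they belong. FGF and Wnt signals keep the progenitors in this state, while Notch signals hold neural progenitors back from becoming neurons. Cells under nutrient or other stress translate the transcription factor ATF4, which raises genes of amino acid supply, and cells with DNA damage or other stress stabilise p53, which raises genes of cell cycle arrest and cell death. Immediate early genes are those that growth factor signals and stress switch on within minutes, with no new protein needed.

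Total counts ran from 25316672 to 39166722 in the D6 libraries and from 25548661 to 34021052 in the D5 libraries. Levels are given as CPM, each gene's count scaled to the size of its library after TMM scaling, a correction for library composition. On the log2 CPM scale the root mean square distance between libraries of different days was 0.448 to 0.521 over 9 pairs, against 0.368 to 0.447 within D6 and 0.418 to 0.446 within D5, 3 pairs each. The step from D6 to hSCNPC-P5, the first passage sequenced, was larger at 1.27 to 1.30. The labelled cell type was checked against its markers. SOX2, a transcription factor of neural and neuromesodermal progenitors, was at 475, 428 and 452 CPM on D6 and 467, 506 and 450.3 CPM on D5 (log2 fold change -0.07 ± 0.07, adjusted p = 0.53). NES, which encodes the progenitor filament nestin, was at 374, 471 and 395 CPM on D6 and 427, 370.2 and 328 CPM on D5 (log2 fold change 0.14 ± 0.07, adjusted p = 0.16). PAX6, a defining gene of later neural tube progenitors, had 15 counts in the 3 D6 libraries together and 13 in the 3 D5 libraries, against 466 ± 27.4 CPM in hSCNPC-P5 (mean ± SD, n = 3). SOX1, another neural tube gene, was at 3.00, 3.40 and 3.86 CPM on D6 and 4.98, 4.32 and 3.61 CPM on D5. By these genes the D6 cells carried SOX2 and NES but nearly no PAX6. CDX2, the caudal regulator of axial progenitors, remained high at 482, 504 and 489 CPM on D6 and 586, 523 and 490.2 CPM on D5 (log2 fold change -0.12 ± 0.21, adjusted p = 0.77), as did NKX1-2, a marker of the same progenitors, at 114, 117 and 86.2 CPM on D6 and 119, 132 and 108 CPM on D5 (log2 fold change -0.17 ± 0.11, adjusted p = 0.28). The pluripotency gene POU5F1 had 3 counts in all on D6 and 4 on D5.

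Of 21597 genes tested with edgeR's quasi-likelihood test, 4805 (22.2%) passed an adjusted p of 0.05, 2229 of them higher on D6 (10.3%) and 2576 lower (11.9%). In bulk RNA, fewer cells of a type and less RNA per cell cannot be told apart. Most of the differences were small. The median log2 fold change, D6 over D5, was 0.36 among the genes called higher and -0.35 among those called lower, and -0.0037 over all genes tested. At least 2-fold changes were called for 149 genes in the upward direction (0.690%) and 148 in the downward direction (0.685%), and only 26 and 15 of these reached a mean of 5 CPM on the day with the higher level. Every D6 library was above every D5 library for 12.5% of the genes tested and below for 14.4%. Of the 4805 called genes, 3786 had no overlap between the days, so a lack of overlap adds little to a call. The genes with the largest fold changes were named only where the days did not overlap. A fit of the 6 libraries alone, with its own estimate of the spread, called 1093 genes higher and 1032 lower. A test against a fold change of 1.2 in place of no change called 371 higher and 419 lower. Rises and falls were counted in 52 lists, and of these 104 counts 36 moved by over 1.5 times in the 6 libraries alone and 65 against a fold change of 1.2. Such counts are given beside the lists described at most length, and those of the other lists stand in the closing section. Without NeuDet-D6 replicate 1, the number lower by at least 2-fold was 86.

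**Figure D1:**
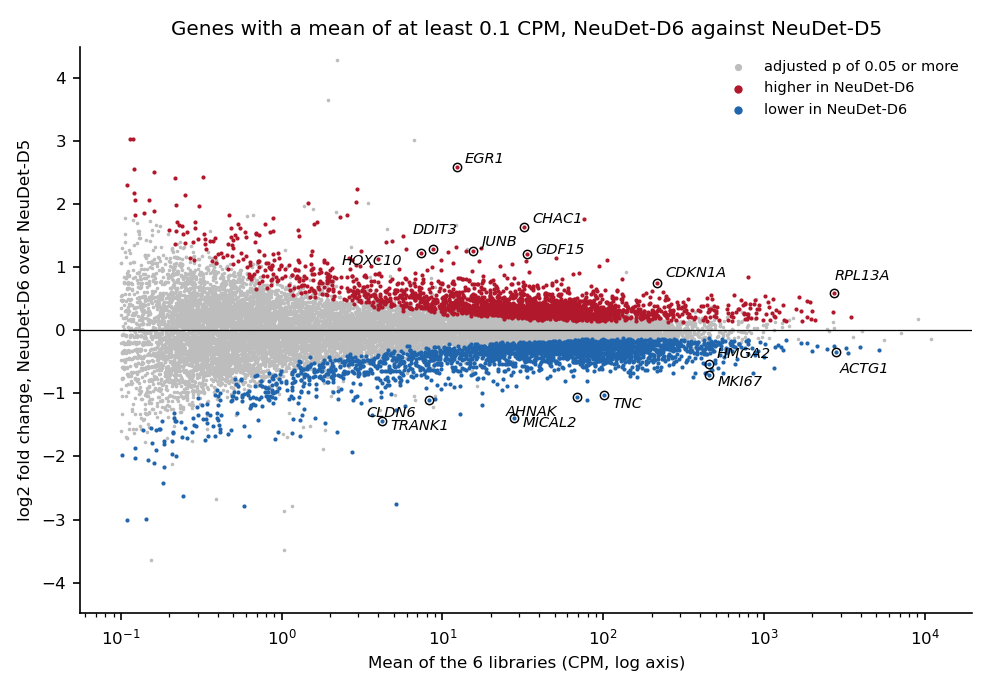
Log2 fold change of each gene, D6 over D5 (vertical axis), against its mean over the 6 libraries in CPM (horizontal log axis), for the 20164 genes tested with a mean of at least 0.1 CPM. Red genes were called higher on D6, blue genes lower and grey genes neither, and circles mark genes named in the text. EGR1, at 2.59, lies above the other genes of its level, and most called genes lie within 1 of 0.

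The length of a gene moved with its difference. Across 14582 genes with a mean of at least 1 CPM and a known length, the decile with the shortest exons (63 to 1646 bases) had a median log2 fold change of 0.15, with 22.1% called higher and 3.63% lower, whereas the decile with the longest (12068 to 205012 bases) had a median of -0.14, with 5.55% called higher and 35.0% lower. Spearman's rho across these genes, which are not independent, was -0.32. The libraries did not share this evenly. In the longest decile the median deviation from the 6-library mean was -0.098, -0.12 and 0.0001 in the D6 libraries, against 0.064, 0.022 and 0.14 in the D5 libraries, so that D6 replicate 3 and D5 replicate 2 were the least tilted of each day. Whether this tilt was biological or arose in the handling of RNA was not tested. Every count below was therefore also taken with each library's length trend removed, an alternative chosen after the tilt had been seen, which called 2462 genes higher and 2077 lower (11.4% and 9.62%). This removal was partial for short genes, as the shortest decile kept a median of 0.09 and the next 0.083. Exon length here joins all annotated exons of a gene. List counts below stand against 10.3% higher and 11.9% lower over all genes tested. Those shares vary with length, from 5.55% to 27.2% higher and from 3.63% to 35.0% lower across the deciles.

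**Figure D2:**
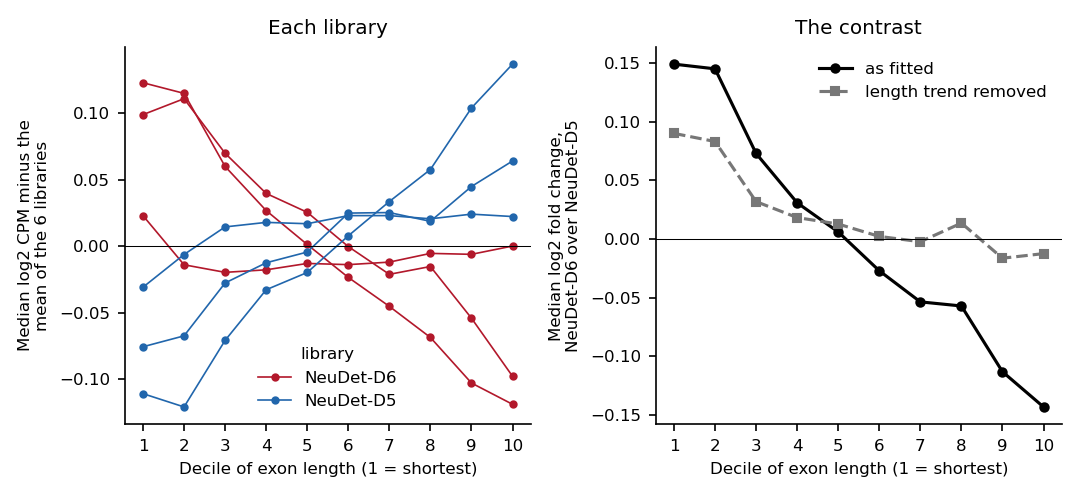
Left, median over genes of log2 CPM minus the mean of the 6 libraries (vertical axis), by decile of exon length (horizontal axis), 1 line for each D6 library (red) and D5 library (blue). Right, median log2 fold change, D6 over D5, in the same deciles as fitted (black) and with the length trend removed (grey). As fitted, the median runs from 0.15 in the shortest decile to -0.14 in the longest, and with the trend removed from 0.090 to -0.012.

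Immediate early genes were higher on D6. Of 17 tested, 13 rose and 1, MYC, fell, with a median log2 fold change of 0.65, against -0.0037 over all genes, of which 10.3% were called higher and 11.9% lower. EGR1, a zinc finger transcription factor (chr5:138465479-138469303, hg38), was at 19.9, 17.4 and 25.8 CPM in the NeuDet-D6 libraries, against 3.84, 3.06 and 3.58 CPM in the NeuDet-D5 libraries (log2 fold change 2.59 ± 0.15, adjusted p = 1.5e-17). No gene met the naming rule with a larger rise. D5 had the lowest EGR1 mean of the NeuDet days, and D4 was at 12.05 CPM, so the rise started from a low day. All 3 D6 libraries lay above the D5 libraries, as that rule asks, with D6 replicate 3 the highest. Its relatives EGR2 and EGR3 were under 1 CPM on both days, and are named because both rose, a choice made after their values were seen. EGR3 had 18, 22 and 18 counts on D6 and 2, 3 and 4 on D5 (log2 fold change 2.42 ± 0.53, adjusted p = 0.00054). EGR2 had 16, 17 and 18 counts on D6 and 3, 6 and 2 on D5 (log2 fold change 1.97 ± 0.47, adjusted p = 0.0012). FOS, which pairs with a JUN protein as the transcription factor AP-1, was at 4.06, 2.75 and 3.90 CPM on D6 and 1.02, 1.14 and 0.879 CPM on D5 (log2 fold change 1.80 ± 0.23, adjusted p = 4.8e-08). JUNB, a JUN relative, was at 22.5, 20.2 and 22.6 CPM on D6 and 9.84, 9.36 and 8.04 CPM on D5 (log2 fold change 1.26 ± 0.13, adjusted p = 1.3e-10). JUN was at 14.98, 12.01 and 17.1 CPM on D6 and 9.57, 8.41 and 8.08 CPM on D5 (log2 fold change 0.75 ± 0.11, adjusted p = 1.3e-06). The D6 and D5 libraries did not overlap for any of these AP-1 genes, which the naming rule asked of JUNB.

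Further immediate early genes rose. ATF3, which stress pathways also raise, was at 36.3, 29.2 and 44.7 CPM on D6 and 25.5, 23.6 and 25.2 CPM on D5 (log2 fold change 0.56 ± 0.09, adjusted p = 3.8e-06). FOSB, also under 1 CPM, had 30, 30 and 26 counts on D6 and 9, 8 and 6 on D5 (log2 fold change 1.68). The log2 fold change was 0.72 for FOSL1, 0.65 for the nuclear receptor gene NR4A1, 0.64 for IER2 and 0.33 for the MAP kinase phosphatase gene DUSP1, whose adjusted p was 0.055 in the 6 libraries alone. Annotated exons of unnamed genes cover 52.2% of the exons of IER2, and the strand setting of the counting is not given in the sources used here, so its reads may be shared. MYC was at 2.66, 2.58 and 1.97 CPM on D6 and 3.58, 3.38 and 3.32 CPM on D5 (log2 fold change -0.49 ± 0.15, adjusted p = 0.014, or 0.081 in the 6 libraries alone), and its call did not hold without NeuDet-D6 replicate 3 (adjusted p = 0.084) or without NeuDet-D5 replicate 1 (adjusted p = 0.052). Leaving out each library in turn left 12 to 13 members higher. Removing the length trend left 13.

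The window from 250 bases before to 50 after the start of EGR1 is shown because EGR1 had the largest rise by the naming rule. Capitals mark matches to the CArG box, the sequence that serum response factor binds, which lie 105 and 83 bases before the start. The box was searched on both strands, with overlapping matches counted once, and was in 454 of 35116 such windows (1.29%). Of the 18 listed immediate early genes, 14 had a window, and EGR1 and EGR2 held a match. Counted by window, 2 of the 18 windows of these genes (11.1%) held a match. The sequence TGACGTCA was searched too. It was in 2 of these 18 windows, those of DUSP1 and JUND, and in 1.85% of all windows. The sequence is from RefSeq, GRCh38.p14, chr5:138465229-138465528, plus strand.
EGR1: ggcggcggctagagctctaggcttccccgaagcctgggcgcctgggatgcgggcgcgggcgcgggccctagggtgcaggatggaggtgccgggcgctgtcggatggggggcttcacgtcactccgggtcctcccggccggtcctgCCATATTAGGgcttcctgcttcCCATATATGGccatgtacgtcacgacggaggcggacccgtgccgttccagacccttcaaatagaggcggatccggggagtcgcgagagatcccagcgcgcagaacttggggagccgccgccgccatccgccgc

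Targets of ATF4 rose together. All 18 of the list were tested, 15 rose and 0 fell, and the median was 0.54. Leaving out each library in turn gave 15 to 17 members higher, and removing each library's length trend gave 16, with a median of 0.61. CHAC1, which encodes an enzyme that degrades glutathione (chr15:40952962-40956512, hg38), was at 52.1, 38.05 and 55.4 CPM in the NeuDet-D6 libraries, against 17.7, 13.8 and 15.6 CPM in the NeuDet-D5 libraries (log2 fold change 1.63 ± 0.11, adjusted p = 9.3e-16). DDIT3, the gene of the stress transcription factor CHOP, was at 12.6, 11.6 and 13.1 CPM on D6 and 4.71, 5.55 and 4.95 CPM on D5 (log2 fold change 1.29 ± 0.15, adjusted p = 5.9e-09). The exons of DDIT3 are overlapped over 39.6% of their length by MARS1, MBD6 and an unnamed gene. CEBPB, which encodes a bZIP partner of ATF4, was at 37.9, 35.0 and 36.3 CPM on D6 and 17.7, 18.6 and 16.4 CPM on D5 (log2 fold change 1.05 ± 0.09, adjusted p = 2.3e-12). For all 3 genes the lowest D6 library was above the highest D5 library, which the naming rule asked of CHAC1 and DDIT3.

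DDIT4, an inhibitor of the growth kinase mTORC1, was at 140.3, 105 and 133 CPM on D6 and 65.4, 59.95 and 62.0 CPM on D5 (log2 fold change 1.01 ± 0.08, adjusted p = 2.3e-13), and D6 replicate 2 was the lowest of its day, as it was for CHAC1 and DDIT3. TRIB3, a pseudokinase that holds ATF4 in check, was at 13.1, 13.2 and 12.8 CPM on D6 and 6.94, 6.75 and 6.45 CPM on D5 (log2 fold change 0.96 ± 0.12, adjusted p = 1.6e-07). ATF4 itself, whose protein is controlled mainly at translation, was at 809.9, 778 and 740.0 CPM on D6 and 535, 546 and 505 CPM on D5 (log2 fold change 0.55 ± 0.05, adjusted p = 2.9e-11). Of the amino acid genes, ASNS (asparagine synthetase) was at 9.64, 6.86 and 12.6 CPM on D6 and 5.77, 4.58 and 5.41 CPM on D5 (log2 fold change 0.88 ± 0.14, adjusted p = 3.1e-06), with 49.3% of its exon length shared with an unnamed gene. SLC7A11, the cystine transporter, had a log2 fold change of 0.53 (adjusted p = 2e-06), its partner chain SLC3A2 had 0.44 (adjusted p = 1e-06), the mitochondrial folate enzyme MTHFD2 had 0.50 (adjusted p = 3.7e-08) and the sestrin SESN2 had 0.64 (adjusted p = 3.6e-09). Genes of serine and glycine synthesis did not pass the threshold in the fit as run, at 0.15 (adjusted p = 0.082) for PHGDH, 0.15 (adjusted p = 0.088) for PSAT1 and 0.12 (adjusted p = 0.15) for SHMT2. PHGDH passed under total counts, with the length trend removed, and without NeuDet-D6 replicate 3 or NeuDet-D5 replicate 1. PSAT1 passed under total counts, under the 1 CPM filter, and without NeuDet-D6 replicate 3 or NeuDet-D5 replicate 2. INHBE, an inhibin chain gene outside the list, was at 16.6, 14.4 and 20.6 CPM on D6 and 7.88, 6.38 and 6.55 CPM on D5 (log2 fold change 1.31 ± 0.14, adjusted p = 7.3e-09).

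The windows of CHAC1 and ASNS are shown because both genes rose and both hold a match to the C/EBP-ATF response element. Capitals mark TGATGNAA on either strand, with overlapping matches counted once. It was in 1270 of the 35116 windows (3.62%). Of the 18 listed genes, 15 had a window, and ASNS, CHAC1 and SLC3A2 held a match in at least 1 window. The matches lie 209 bases before the start of CHAC1 and 68 before that of ASNS. The sequences are from RefSeq, GRCh38.p14, chr15:40953221-40953520, plus strand, for CHAC1 and chr7:97872359-97872658, minus strand, for ASNS.
CHAC1: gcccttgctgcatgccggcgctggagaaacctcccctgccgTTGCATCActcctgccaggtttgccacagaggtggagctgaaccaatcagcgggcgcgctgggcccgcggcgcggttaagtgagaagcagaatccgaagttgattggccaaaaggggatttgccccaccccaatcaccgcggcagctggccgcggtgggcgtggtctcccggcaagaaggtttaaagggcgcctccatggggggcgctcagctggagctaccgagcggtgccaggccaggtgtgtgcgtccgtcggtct
ASNS: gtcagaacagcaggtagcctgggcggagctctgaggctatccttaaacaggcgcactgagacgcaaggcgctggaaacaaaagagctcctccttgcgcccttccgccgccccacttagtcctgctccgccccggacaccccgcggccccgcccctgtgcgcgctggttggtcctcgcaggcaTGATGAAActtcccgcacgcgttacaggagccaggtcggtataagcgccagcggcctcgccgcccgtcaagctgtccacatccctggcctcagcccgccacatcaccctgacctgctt

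The unfolded protein response list, which holds chaperones and regulators of the endoplasmic reticulum, moved in part. Of 14 tested, 7 rose and 0 fell (median 0.12), though DESeq2 called 2 lower. The number was 4 without NeuDet-D5 replicate 3, 3 in the 6 libraries alone and 2 against a fold change of 1.2. With the length trend removed 6 rose and 1 fell, and falls numbered 1 without NeuDet-D6 replicate 2, NeuDet-D5 replicate 1 or NeuDet-D5 replicate 3. XBP1, a transcription factor of the response, was at 165, 156 and 148 CPM on D6 and 102, 111 and 103 CPM on D5 (log2 fold change 0.57 ± 0.06, adjusted p = 2e-09). HERPUD1, which takes part in the disposal of misfolded proteins, was at 27.1, 24.2 and 25.2 CPM on D6 and 15.3, 17.5 and 15.96 CPM on D5 (log2 fold change 0.65 ± 0.08, adjusted p = 5.5e-08). HSPA5, the main chaperone of the compartment, was at 638, 644 and 517 CPM on D6 and 610.1, 645 and 584 CPM on D5 (log2 fold change -0.03 ± 0.06, adjusted p = 0.76), and its D6 and D5 libraries overlapped. Of 8 heat shock genes tested, 2 rose and 2 fell. Rises numbered 0 without NeuDet-D6 replicate 1, NeuDet-D6 replicate 2, NeuDet-D5 replicate 1 or NeuDet-D5 replicate 3, and falls numbered 1 without NeuDet-D6 replicate 1, NeuDet-D6 replicate 3, NeuDet-D5 replicate 2 or NeuDet-D5 replicate 3.

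Targets of p53 rose as well. Of 15 tested, 11 rose and 0 fell (median 0.45), with 10 to 11 higher as libraries were left out in turn. The count was 12 with the length trend removed and 7 against a fold change of 1.2. GDF15, a secreted stress hormone that ATF4 also induces, was at 49.4, 40.4 and 50.7 CPM in the NeuDet-D6 libraries, against 19.7, 20.9 and 19.9 CPM in the NeuDet-D5 libraries (log2 fold change 1.21 ± 0.17, adjusted p = 2e-06). CDKN1A, the gene of the cyclin-dependent kinase inhibitor p21, was at 272, 244 and 297 CPM on D6 and 169.6, 148 and 167 CPM on D5 (log2 fold change 0.75 ± 0.08, adjusted p = 5.6e-10). For both genes every D6 library was above every D5 library, which the naming rule asked of GDF15. The log2 fold change was 0.63 (adjusted p = 1.8e-06) for FDXR, 0.60 (adjusted p = 2.1e-06) for PHLDA3 and 0.57 (adjusted p = 2.6e-07) for ZMAT3. MDM2, which encodes the ubiquitin ligase of p53, was at 62.7, 65.0 and 53.3 CPM on D6 and 49.2, 57.1 and 57.9 CPM on D5 (log2 fold change 0.14 ± 0.08, adjusted p = 0.25), with the days overlapping.

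In the BCL2 family, which controls release of death factors from mitochondria, 5 of 15 members rose and 1 fell (median 0.08), or 0 without NeuDet-D6 replicate 1. PMAIP1, the gene of the killer protein NOXA, was at 28.6, 22.2 and 23.8 CPM in the NeuDet-D6 libraries, against 10.6, 10.3 and 9.38 CPM in the NeuDet-D5 libraries (log2 fold change 1.30 ± 0.16, adjusted p = 3.3e-07). BBC3, which encodes PUMA, was at 31.8, 33.8 and 35.1 CPM on D6 and 22.4, 19.5 and 19.2 CPM on D5 (log2 fold change 0.72 ± 0.09, adjusted p = 3.4e-08). BAX, a pore-forming member, was at 283, 304 and 271 CPM on D6 and 217, 188 and 158 CPM on D5 (log2 fold change 0.61 ± 0.08, adjusted p = 2.6e-07). BAX and BBC3 stand in the p53 list too. In all 3 genes the days were apart, which the naming rule asked of PMAIP1.

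Other genes with large rises belonged to no list described so far. GPR155, which encodes a lysosomal membrane protein, was at 7.84, 9.02 and 8.38 CPM in the NeuDet-D6 libraries, against 2.22, 3.38 and 3.26 CPM in the NeuDet-D5 libraries (log2 fold change 1.50 ± 0.17, adjusted p = 4.6e-09). RELB, a subunit of NF-kB, was at 6.93, 6.93 and 7.25 CPM on D6 and 3.09, 2.69 and 2.12 CPM on D5 (log2 fold change 1.42 ± 0.16, adjusted p = 2e-09). OPRK1, the kappa opioid receptor gene, was at 8.75, 7.95 and 8.67 CPM on D6 and 4.03, 3.49 and 2.90 CPM on D5 (log2 fold change 1.29 ± 0.17, adjusted p = 9.7e-08). ABCB1, which encodes the drug efflux pump P-glycoprotein, was at 67.7, 69.9 and 71.8 CPM in the NeuDet-D6 libraries, against 30.5, 31.0 and 33.4 CPM in the NeuDet-D5 libraries (log2 fold change 1.14 ± 0.10, adjusted p = 4.6e-12). The ABCB1 libraries were close within each day. PLAAT3, a phospholipase gene, was at 16.1, 15.997 and 13.4 CPM on D6 and 6.14, 6.78 and 6.38 CPM on D5 (log2 fold change 1.24 ± 0.13, adjusted p = 2.2e-09). BCYRN1, a short RNA derived from an Alu repeat, was at 26.001, 17.99 and 15.3 CPM on D6 and 7.35, 10.6 and 6.84 CPM on D5 (log2 fold change 1.25 ± 0.17, adjusted p = 4.2e-07), a value that is uncertain because Alu copies share sequence.

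**Figure D3:**
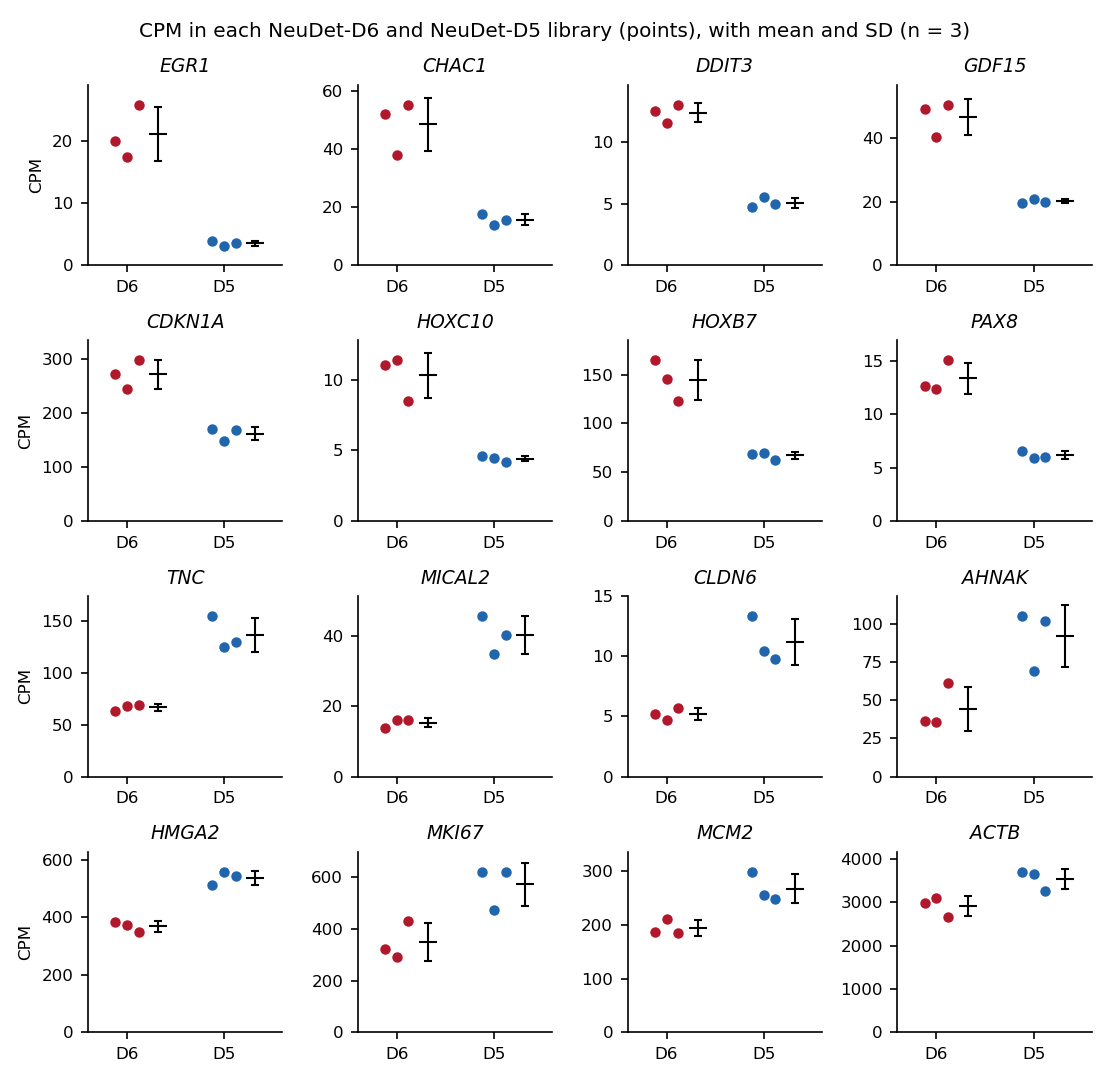
CPM (vertical axis, from 0) of 16 genes in the 3 D6 libraries (red points, left) and the 3 D5 libraries (blue points, right), with the mean and SD (n = 3) beside each group. In the upper 8 panels every D6 library lies above every D5 library, and in the lower 8 every D6 library lies below, as for TNC at 63.2 to 68.7 CPM on D6 and 124 to 155 CPM on D5.

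HOX genes were counted by paralog group. In paralog groups 9 to 13, which pattern the thoracic to sacral cord, 7 of 16 genes could be tested, and 4 rose and 0 fell (median 0.83). In groups 6 to 8, 3 of 8 rose (median 0.27), and in groups 1 to 5, 2 of 15 (median 0.04). None of the 3 lists had a member called lower in the fit as run. The summed CPM of groups 9 to 13, most of it from HOXB9, was nonetheless lower on D6. It was 677.9 to 760.1 CPM on D6 and 772.0 to 839.2 CPM on D5. Against a fold change of 1.2, 2 rose in groups 9 to 13, 1 in groups 6 to 8 and 0 in groups 1 to 5. In groups 6 to 8, 5 rose under DESeq2, under total counts, in the 18 NeuDet libraries alone and under the 1 CPM filter. The 2 calls in groups 1 to 5 came to 1 without NeuDet-D6 replicate 1, NeuDet-D6 replicate 2 or NeuDet-D6 replicate 3, to 1 higher and 1 lower with the length trend removed, and to 0 higher and 1 lower in the 6 libraries alone. The medians of the 3 lists were 0.79, 0.23 and -0.02 in the same order with that trend removed.

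HOXC10, a lumbar gene, was at 11.05, 11.4 and 8.53 CPM in the NeuDet-D6 libraries, against 4.60, 4.49 and 4.20 CPM in the NeuDet-D5 libraries (log2 fold change 1.22 ± 0.18, adjusted p = 3.1e-06). HOXA9 was at 37.1, 32.8 and 27.7 CPM on D6 and 18.4, 19.3 and 17.2 CPM on D5 (log2 fold change 0.83 ± 0.12, adjusted p = 1.1e-06). HOXC9, a thoracic gene, was at 59.4, 59.9 and 47.0 CPM on D6 and 42.2, 41.8 and 36.3 CPM on D5 (log2 fold change 0.47 ± 0.09, adjusted p = 0.00012). In each of these genes the lowest D6 library was above the highest D5 library, which the naming rule asked of HOXC10. D6 replicate 3 was the lowest of its day in each. HOXA10 was at 4.95, 4.28 and 3.61 CPM on D6 and 2.71, 2.23 and 2.12 CPM on D5 (log2 fold change 0.87 ± 0.25, adjusted p = 0.0081), with an adjusted p of 0.054 without NeuDet-D6 replicate 1. HOXB9 was at 646, 588 and 589 CPM on D6 and 769.9, 716 and 711 CPM on D5 and did not pass the test (log2 fold change -0.27 ± 0.12, adjusted p = 0.12), though DESeq2 called it lower (adjusted p = 0.00019). The fit of the 18 NeuDet libraries alone and that of the 6 libraries alone with a replicate block called HOXB9 lower too. Among groups 6 to 8, HOXB7 was at 165, 146 and 123 CPM in the NeuDet-D6 libraries, against 68.8, 69.7 and 62.7 CPM in the NeuDet-D5 libraries (log2 fold change 1.11 ± 0.11, adjusted p = 8.5e-10). HOXB6 was at 40.9, 43.1 and 40.7 CPM on D6 and 34.9, 29.1 and 31.7 CPM on D5 (log2 fold change 0.38 ± 0.09, adjusted p = 0.0012). HOXC8 was at 102, 104 and 86.0 CPM on D6 and 97.0, 97.5 and 97.1 CPM on D5 (log2 fold change 0.01 ± 0.08, adjusted p = 0.98). HOXC6, a gene of the brachial cord, was at 185, 194 and 158 CPM on D6 and 156, 145 and 137 CPM on D5 (log2 fold change 0.29 ± 0.08, adjusted p = 0.0094, or 0.059 in the 6 libraries alone). Its adjusted p was 0.071 without NeuDet-D6 replicate 2 and 0.057 without NeuDet-D5 replicate 3. HOX genes and their antisense partners overlap, by 27.0% of exon length in HOXA9, 26.3% in HOXA10 and 32.9% in HOXB6. Of the MEIS and PBX genes, whose proteins bind DNA with HOX proteins, 3 of 9 fell and 0 rose, and the falls numbered 1 in the 6 libraries alone and 0 against a fold change of 1.2.

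Genes that pattern the brain and its isthmus were mostly low, and 5 of them rose. Of 12 tested, 5 rose and 0 fell, in the fit as run and also with any single library left out, and 7 had a mean of at least 1 CPM on either day. The rises numbered 3 against a fold change of 1.2. Several of the 5 are also used in the spinal cord, where PAX2, PAX5, PAX8 and EN1 mark inhibitory interneurons. EN1 was at 3.93, 5.59 and 4.99 CPM on D6 and 1.28, 0.859 and 0.944 CPM on D5 (log2 fold change 2.24 ± 0.32, adjusted p = 1.2e-06). EN2 was at 10.1, 12.7 and 11.9 CPM on D6 and 6.52, 5.44 and 5.31 CPM on D5 (log2 fold change 1.01 ± 0.21, adjusted p = 0.00037). PAX8 was at 12.7, 12.4 and 15.1 CPM on D6 and 6.56, 5.90 and 6.02 CPM on D5 (log2 fold change 1.12 ± 0.23, adjusted p = 0.00023). PAX5 was at 11.9, 13.7 and 15.4 CPM on D6 and 9.72, 8.24 and 8.95 CPM on D5 (log2 fold change 0.61 ± 0.15, adjusted p = 0.0022). PAX2 was at 121, 138 and 134 CPM on D6 and 115, 95.2 and 97.2 CPM on D5 (log2 fold change 0.35 ± 0.08, adjusted p = 0.0011). Every D6 library was above every D5 library for all 5 genes.

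Genes of neuromesodermal progenitors were mixed. Of 13 tested, 3 rose and 1 fell (median -0.17), or 0 without NeuDet-D6 replicate 1, NeuDet-D6 replicate 2 or NeuDet-D5 replicate 3. TBXT, the mesoderm regulator Brachyury, was at 8.99, 8.82 and 7.80 CPM on D6 and 5.62, 4.26 and 4.75 CPM on D5 (log2 fold change 0.81 ± 0.20, adjusted p = 0.0023). FGF8 was at 15.1, 15.4 and 14.1 CPM on D6 and 8.48, 10.1 and 8.14 CPM on D5 (log2 fold change 0.74 ± 0.18, adjusted p = 0.0017). Of 14 neural progenitor genes, 2 rose and 2 fell, near the shares over all genes (10.3% and 11.9%). CDH2, which encodes N-cadherin, was at 203, 199 and 187 CPM on D6 and 245, 257 and 260.0 CPM on D5 (log2 fold change -0.37 ± 0.08, adjusted p = 0.00058). The rises came to 0 without NeuDet-D6 replicate 3 and 1 without NeuDet-D6 replicate 2, NeuDet-D5 replicate 2 or NeuDet-D5 replicate 3. The falls came to 1 without NeuDet-D6 replicate 2, NeuDet-D5 replicate 1 or NeuDet-D5 replicate 3.

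The dorsal and ventral progenitor lists each had more rises than falls, and most of their members were not called. Among dorsal genes 4 of 13 rose and 1 fell, and the rises came to 2 without NeuDet-D5 replicate 2. MSX1, a target of BMP signals, was at 299, 312 and 299 CPM on D6 and 251, 218 and 214 CPM on D5 (log2 fold change 0.41 ± 0.11, adjusted p = 0.0059). Among intermediate and ventral genes 3 of 14 rose and 0 fell, and 11 were below 1 CPM on both days. The rises came to 2 with any single library left out and to 2 with the length trend removed. IRX3 was at 17.0, 19.3 and 17.8 CPM on D6 and 12.97, 13.7 and 11.7 CPM on D5 (log2 fold change 0.50 ± 0.09, adjusted p = 4.3e-05). NKX6-1, a ventral progenitor gene, was at 25.0, 24.4 and 22.5 CPM on D6 and 19.2, 18.3 and 17.7 CPM on D5 (log2 fold change 0.39 ± 0.12, adjusted p = 0.013), with an adjusted p of 0.051 without NeuDet-D6 replicate 1 and 0.053 without NeuDet-D5 replicate 3. OLIG2, which marks motor neuron progenitors, had 8, 5 and 3 counts on D6 and 1, 2 and 5 on D5 (log2 fold change 0.75 ± 0.59, adjusted p = 0.42), and NKX2-2 had 0 counts in every library of both days.

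Where proneural genes passed the test, they rose. Of 17 tested, 5 rose and 0 fell, or 1 fell without NeuDet-D6 replicate 1, and 6 had at least 1 CPM. Against a fold change of 1.2, 3 rose. NEUROG2, which starts neuronal differentiation, was at 15.2, 14.95 and 20.3 CPM in the NeuDet-D6 libraries, against 11.5, 8.90 and 8.37 CPM in the NeuDet-D5 libraries (log2 fold change 0.81 ± 0.16, adjusted p = 0.0001). HES6, which opposes HES1, was at 235, 286 and 207 CPM on D6 and 178, 164 and 132 CPM on D5 (log2 fold change 0.62 ± 0.10, adjusted p = 2.1e-05). SOX4, a transcription factor of young neurons, was at 229, 245 and 205 CPM on D6 and 186, 193 and 172 CPM on D5 (log2 fold change 0.30 ± 0.07, adjusted p = 0.00054). SOX11, its close relative, was at 336, 356 and 389 CPM on D6 and 328, 304 and 304 CPM on D5 (log2 fold change 0.21 ± 0.05, adjusted p = 0.0034, or 0.14 in the 6 libraries alone). These 4 genes were higher in every D6 library than in any D5 library, and all 5 calls held with the length trend removed. Genes of neurons at large were divided, with 4 of 17 higher and 2 lower, and the rises came to 2 without NeuDet-D5 replicate 1. ELAVL3, an RNA-binding protein gene of young neurons, was at 7.09, 6.86 and 5.39 CPM on D6 and 2.56, 2.17 and 2.70 CPM on D5 (log2 fold change 1.40 ± 0.17, adjusted p = 3.7e-08). The stathmin gene STMN3 was at 73.1, 87.8 and 72.3 CPM on D6 and 57.9, 60.2 and 47.0 CPM on D5 (log2 fold change 0.50 ± 0.09, adjusted p = 2e-05). DCX, the gene of doublecortin in migrating neurons, had 20 counts in each D6 library and 39, 59 and 64 in the D5 libraries (log2 fold change -1.63 ± 0.23, adjusted p = 6.9e-07). MAP2, a microtubule protein gene of neurons, was at 28.5, 29.9 and 33.6 CPM on D6 and 39.1, 40.4 and 42.9 CPM on D5 (log2 fold change -0.42 ± 0.09, adjusted p = 0.00075). Of the transcription factors of spinal neuron classes, 2 of 19 rose and 2 fell, with 4 at 1 CPM or more. The upward calls came to 0 without NeuDet-D6 replicate 2 or NeuDet-D5 replicate 2 and 1 without NeuDet-D6 replicate 3 or NeuDet-D5 replicate 3, and the falls to 1 without NeuDet-D6 replicate 2, NeuDet-D5 replicate 1 or NeuDet-D5 replicate 2. Of gliogenic factors 2 of 10 rose, SOX8 and the glutamate transporter gene SLC1A3, and 0 fell. Rises numbered 1 without NeuDet-D5 replicate 2 or NeuDet-D5 replicate 3.

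The Notch pathway, which the medium blocks at gamma-secretase on both days, was divided. Of 17 genes tested, 3 rose and 4 fell, against 10.3% and 11.9% over all genes. Against a fold change of 1.2, 1 rose and 2 fell, and in the 6 libraries alone 2 fell. The receptor gene NOTCH2 was at 105, 97.2 and 136 CPM on D6 and 201, 156 and 182 CPM on D5 (log2 fold change -0.67 ± 0.11, adjusted p = 2.3e-05). NOTCH1 was at 129.6, 131 and 180.3 CPM on D6 and 192, 127 and 164 CPM on D5 (log2 fold change -0.13 ± 0.12, adjusted p = 0.48). The ligand gene JAG1 was at 22.2, 21.9 and 28.8 CPM on D6 and 32.8, 28.9 and 31.5 CPM on D5 (log2 fold change -0.36 ± 0.08, adjusted p = 0.00072, or 0.061 in the 6 libraries alone). DLL3, a ligand that dampens the pathway, was at 32.7, 36.9 and 28.0 CPM on D6 and 25.6, 20.9 and 21.1 CPM on D5 (log2 fold change 0.54 ± 0.13, adjusted p = 0.0014). HES1, a repressor that Notch and other signals raise, was at 41.7, 37.7 and 33.6 CPM on D6 and 23.97, 24.9 and 24.9 CPM on D5 (log2 fold change 0.62 ± 0.09, adjusted p = 1.6e-06). HES5, a direct Notch target of neural progenitors, had 0 counts in all 6 libraries, and the feedback gene NRARP was at 41.3, 39.0 and 38.4 CPM on D6 and 38.1, 39.4 and 36.9 CPM on D5 (log2 fold change 0.05 ± 0.07, adjusted p = 0.65).

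Wnt targets, under CHIR99021 on both days, mostly stayed below the threshold, with 2 of 14 higher and 2 lower. These counts are near the shares over all genes tested (10.3% higher and 11.9% lower). The lower count came to 1 without NeuDet-D6 replicate 1 or NeuDet-D5 replicate 1. Both genes that rose encode secreted Wnt antagonists. NOTUM, a lipase that inactivates Wnt ligands, was at 20.6, 23.9 and 24.3 CPM on D6 and 11.7, 9.62 and 10.9 CPM on D5 (log2 fold change 1.10 ± 0.13, adjusted p = 2.6e-08). DKK1, which blocks the LRP co-receptors, was at 3.28, 3.62 and 4.99 CPM on D6 and 1.17, 1.06 and 1.11 CPM on D5 (log2 fold change 1.82 ± 0.25, adjusted p = 3.1e-07). AXIN2, the most used readout of the pathway, was at 159, 161 and 181 CPM on D6 and 168, 148 and 153 CPM on D5 (log2 fold change 0.09 ± 0.07, adjusted p = 0.36). CCND1, which encodes cyclin D1, was at 239.6, 232 and 232 CPM on D6 and 304, 274 and 279 CPM on D5 (log2 fold change -0.28 ± 0.07, adjusted p = 0.0011, or 0.053 in the 6 libraries alone). Of Wnt ligand and receptor genes 1 of 27 rose and 4 fell. The rise came to 0 without NeuDet-D6 replicate 2, NeuDet-D6 replicate 3 or NeuDet-D5 replicate 3, and the falls to 2 without NeuDet-D6 replicate 2 or NeuDet-D5 replicate 3.

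FGF and ERK feedback genes were even, with 3 of 22 higher and 3 lower, near the shares over all genes (10.3% and 11.9%). The falls came to 5 without NeuDet-D6 replicate 3. The receptor gene FGFR1 was at 472, 496 and 550.2 CPM on D6 and 715, 591 and 648 CPM on D5 (log2 fold change -0.36 ± 0.07, adjusted p = 5.1e-05). Of 16 retinoic acid genes, 4 rose and 1 fell, or 0 without NeuDet-D6 replicate 1 or NeuDet-D5 replicate 1. The retinal reductase gene DHRS3 was at 4.85, 4.79 and 4.63 CPM on D6 and 3.28, 2.78 and 2.28 CPM on D5 (log2 fold change 0.78 ± 0.14, adjusted p = 4.8e-05).

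In the hedgehog pathway 1 of 12 genes rose and 5 fell, and the falls came to 3 without NeuDet-D5 replicate 1, 3 in the 6 libraries alone and 1 against a fold change of 1.2. GLI2 and GLI3, the transcription factors of the pathway, had log2 fold changes of -0.51 (adjusted p = 0.00031) and -0.47 (adjusted p = 0.001), and the co-receptor gene CDON had -0.65 (adjusted p = 0.00012). HHIP, which encodes a decoy receptor of hedgehog ligands, was at 8.42, 7.61 and 9.22 CPM on D6 and 4.75, 5.15 and 5.05 CPM on D5 (log2 fold change 0.75 ± 0.12, adjusted p = 2.8e-06). The receptor and target gene PTCH1 was at 385, 369 and 506 CPM on D6 and 469, 364 and 436 CPM on D5 (log2 fold change -0.01 ± 0.09, adjusted p = 0.97). The median exon length of the list was 7300 bases, against 4176 over all genes tested, and 4 of its members fell with the length trend removed. In the length decile from 7285 to 8981 bases, 20.9% of genes were called lower and 8.57% higher.

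BMP and TGF-beta genes rose more often than they fell, although inhibitors of both branches were present on both days. Of 19 tested, 6 rose and 1 fell, or 2 fell without NeuDet-D6 replicate 3. The rises stayed at 6 with each library left out. The ligand gene BMP4 was at 24.4, 23.6 and 30.2 CPM in the NeuDet-D6 libraries, against 15.4, 14.4 and 15.4 CPM in the NeuDet-D5 libraries (log2 fold change 0.79 ± 0.11, adjusted p = 5.3e-07). TGFB2, a TGF-beta ligand gene, was at 10.9, 10.2 and 10.6 CPM on D6 and 5.20, 5.44 and 5.80 CPM on D5 (log2 fold change 0.95 ± 0.18, adjusted p = 8e-05). NOG, which encodes the BMP antagonist noggin, was at 23.2, 23.9 and 21.1 CPM on D6 and 13.2, 13.8 and 12.6 CPM on D5 (log2 fold change 0.78 ± 0.14, adjusted p = 1.8e-05). ID2, a target of BMP signals, was at 73.4, 75.5 and 72.4 CPM on D6 and 48.3, 53.1 and 45.9 CPM on D5 (log2 fold change 0.59 ± 0.08, adjusted p = 3.7e-07), and ID3 had a log2 fold change of 0.31 (adjusted p = 0.0019). The days did not overlap for any of these genes.

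Genes of the extracellular matrix fell. Of 26 tested, 0 rose and 19 fell (median -0.37), and 15 to 21 fell as libraries were left out in turn. The count was 12 in the 6 libraries alone and 9 against a fold change of 1.2. These are long genes, with a median exon length of 9959 bases. In the length decile from 8981 to 12066 bases, 31.2% of genes were called lower and 8.09% higher. With the length trend removed 16 of the list fell (median -0.29). TNC, which encodes the matrix glycoprotein tenascin-C (chr9:115019575-115118207, hg38), was at 63.2, 68.5 and 68.7 CPM in the NeuDet-D6 libraries, against 155, 124 and 129.6 CPM in the NeuDet-D5 libraries (log2 fold change -1.03 ± 0.12, adjusted p = 5.5e-08). FBN2, a fibrillin gene of embryonic matrix, was at 273, 264 and 326 CPM on D6 and 494, 401 and 487 CPM on D5 (log2 fold change -0.68 ± 0.09, adjusted p = 2.8e-07). The proteoglycan gene VCAN was at 369, 349 and 404 CPM on D6 and 574, 513 and 642 CPM on D5 (log2 fold change -0.62 ± 0.11, adjusted p = 6.2e-05). The laminin gene LAMA1 was at 165, 144 and 186 CPM on D6 and 270.1, 220.0 and 264 CPM on D5 (log2 fold change -0.61 ± 0.08, adjusted p = 1.1e-07). FN1, the fibronectin gene, which stands in the mesenchymal list, was at 119.5, 106 and 141 CPM on D6 and 221, 183 and 209 CPM on D5 (log2 fold change -0.74 ± 0.11, adjusted p = 2.6e-06). In all 5 genes every D6 library was below every D5 library, which the naming rule asked of TNC. HSPG2, the perlecan gene, overlapped between the days at 88.1, 94.0 and 151 CPM on D6 and 230.2, 133 and 188 CPM on D5 (log2 fold change -0.73 ± 0.16, adjusted p = 0.0011, or 0.21 in the 6 libraries alone), with D6 replicate 3 above D5 replicate 2. Those are the libraries that were least tilted by length.

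Collagens outside the list were among the largest falls. COL12A1 was at 7.01, 6.30 and 8.67 CPM on D6 and 19.8, 16.9 and 18.01 CPM on D5 (log2 fold change -1.33 ± 0.12, adjusted p = 3.4e-11). COL14A1 was at 49.4, 46.6 and 55.3 CPM in the NeuDet-D6 libraries, against 103, 106 and 115 CPM in the NeuDet-D5 libraries (log2 fold change -1.10 ± 0.07, adjusted p = 2.4e-16). Both encode fibril-associated collagens. ADAMTS17, a secreted metalloprotease gene, was at 1.88, 2.48 and 1.79 CPM on D6 and 5.39, 5.09 and 5.21 CPM on D5 (log2 fold change -1.34 ± 0.15, adjusted p = 5.3e-09). MICAL2, which encodes an enzyme that oxidises and disassembles actin filaments (chr11:12094008-12359144, hg38), was at 13.8, 15.997 and 16.2 CPM in the NeuDet-D6 libraries, against 45.7, 35.0 and 40.4 CPM in the NeuDet-D5 libraries (log2 fold change -1.40 ± 0.15, adjusted p = 1.7e-08). TRANK1 was at 2.58, 1.77 and 2.44 CPM on D6 and 5.80, 5.58 and 7.03 CPM on D5 (log2 fold change -1.45 ± 0.16, adjusted p = 2.6e-09), and no gene met the naming rule with a larger fall. The naming rule asked that the days be apart for each of these genes.

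Among targets of YAP, a regulator that responds to stretch and cell contact, 2 of 13 rose and 8 fell (median -0.30). Falls came to 5 without NeuDet-D6 replicate 1, NeuDet-D6 replicate 2 or NeuDet-D5 replicate 1, and the count was 4 in the 6 libraries alone and 1 against a fold change of 1.2. CCN2, connective tissue growth factor, was at 3.62, 3.31 and 3.79 CPM on D6 and 7.58, 8.36 and 8.63 CPM on D5 (log2 fold change -1.21 ± 0.13, adjusted p = 7.6e-10). AMOTL2, which holds YAP at cell junctions, was at 34.8, 34.3 and 42.2 CPM on D6 and 57.7, 47.7 and 49.9 CPM on D5 (log2 fold change -0.48 ± 0.09, adjusted p = 0.00011). The genes that rose were TGFB2, given above, and F3, which encodes tissue factor. Of epithelial genes 3 of 14 fell and 0 rose, or 1 rose without NeuDet-D6 replicate 1. CLDN6, a tight junction gene of early embryonic epithelia, was at 5.21, 4.72 and 5.69 CPM in the NeuDet-D6 libraries, against 13.3, 10.4 and 9.80 CPM in the NeuDet-D5 libraries (log2 fold change -1.11 ± 0.11, adjusted p = 5.2e-11). The keratin gene KRT19 was at 7.92, 8.44 and 7.80 CPM on D6 and 14.1, 14.3 and 12.6 CPM on D5 (log2 fold change -0.76 ± 0.11, adjusted p = 1.5e-06). Mesenchymal genes had 2 rises and 2 falls among 12, and the rises came to 1 without NeuDet-D6 replicate 3, NeuDet-D5 replicate 2 or NeuDet-D5 replicate 3. Ephrins and their receptors had 0 rises and 3 falls among 21, and the rises came to 1 without NeuDet-D6 replicate 2 or NeuDet-D5 replicate 1.

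Further large falls were in genes of other kinds. AHNAK, a giant scaffold protein gene, was at 36.4, 35.6 and 61.3 CPM on D6 and 105, 69.1 and 102 CPM on D5 (log2 fold change -1.06 ± 0.18, adjusted p = 6.3e-05, or 0.071 in the 6 libraries alone), with D6 replicate 3 and D5 replicate 2 nearest to each other. NLGN3, a synaptic adhesion gene, was at 9.30, 10.96 and 12.2 CPM on D6 and 27.4, 22.9 and 23.1 CPM on D5 (log2 fold change -1.18 ± 0.11, adjusted p = 4.6e-12). The log2 fold change was -1.26 (adjusted p = 5.6e-10) for the actin regulator gene ZNF185, -1.09 (adjusted p = 1.8e-05) for TMEM88, a Wnt inhibitor, -1.06 (adjusted p = 5.5e-08) for the zinc finger gene ZNF135, -1.01 (adjusted p = 4.1e-06) for the arginine deiminase gene PADI2 and -0.99 (adjusted p = 7.6e-10) for the lipid flippase gene ATP9A.

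Genes of DNA replication and mitosis fell where they were called in the fit as run. Of 22 DNA replication genes, 0 rose and 13 fell (median -0.23), 9 to 13 as libraries were left out in turn and 13 with the length trend removed. The count was 8 in the 6 libraries alone and 2 against a fold change of 1.2. A member rose in the fits without NeuDet-D6 replicate 3 or NeuDet-D5 replicate 2. RRM2, a subunit of ribonucleotide reductase, was at 134, 133 and 121 CPM in the NeuDet-D6 libraries, against 192, 204 and 194 CPM in the NeuDet-D5 libraries (log2 fold change -0.61 ± 0.05, adjusted p = 6.1e-12). MCM2, a subunit of the replicative helicase, was at 187, 212 and 185 CPM on D6 and 299, 255 and 249 CPM on D5 (log2 fold change -0.46 ± 0.10, adjusted p = 0.00059). MCM6, another, was at 208, 222 and 191 CPM on D6 and 261, 292 and 270.3 CPM on D5 (log2 fold change -0.41 ± 0.10, adjusted p = 0.0018). PCNA, the sliding clamp, overlapped between the days at 331, 353 and 257 CPM on D6 and 296, 361 and 308 CPM on D5 (log2 fold change -0.03 ± 0.08, adjusted p = 0.81).

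Of 20 mitosis genes, 0 rose and 11 fell (median -0.24), but the falls came to 5 without NeuDet-D6 replicate 2 and 7 without NeuDet-D6 replicate 3. The count was 5 in the 6 libraries alone and 2 against a fold change of 1.2. MKI67, which encodes the proliferation antigen Ki-67, was at 319.9, 291 and 431 CPM in the NeuDet-D6 libraries, against 619, 473 and 619 CPM in the NeuDet-D5 libraries (log2 fold change -0.72 ± 0.17, adjusted p = 0.0022). CENPF, a kinetochore protein gene, was at 400.1, 389 and 454 CPM on D6 and 605, 575 and 701 CPM on D5 (log2 fold change -0.60 ± 0.11, adjusted p = 0.00019). CCNA2, cyclin A2, was at 146, 132 and 143 CPM on D6 and 161, 189 and 181 CPM on D5 (log2 fold change -0.33 ± 0.07, adjusted p = 0.00036). CDK1, the kinase that drives mitosis, overlapped at 142, 125 and 112 CPM on D6 and 107, 145 and 127 CPM on D5 (log2 fold change 0.00 ± 0.12, adjusted p = 1). Its partner CCNB1, cyclin B1, overlapped at 414, 384 and 369 CPM on D6 and 368, 406 and 367 CPM on D5 (log2 fold change 0.03 ± 0.07, adjusted p = 0.79). Of D cyclins and inhibitors 3 of 10 rose, CDKN1A among them, and 1 fell.

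Genes of the LIN28, HMGA and IGF2BP families, which are high in early embryonic cells, fell. Of 7 tested, 0 rose and 6 fell (median -0.32), and 6 fell with the length trend removed. The count was 2 against a fold change of 1.2. HMGA2, a chromatin protein gene that let-7 microRNAs repress, was at 385, 373 and 349 CPM in the NeuDet-D6 libraries, against 511, 558 and 542 CPM in the NeuDet-D5 libraries (log2 fold change -0.54 ± 0.07, adjusted p = 3.7e-08). HMGA1 was at 1676, 1793 and 1853 CPM on D6 and 2398, 2181 and 2077 CPM on D5 (log2 fold change -0.32 ± 0.07, adjusted p = 0.0002). IGF2BP1 was at 502, 539 and 582 CPM on D6 and 846, 719 and 782 CPM on D5 (log2 fold change -0.53 ± 0.07, adjusted p = 6.7e-08). IGF2BP3 was at 72.7, 72.1 and 93.7 CPM on D6 and 104, 96.9 and 116 CPM on D5 (log2 fold change -0.41 ± 0.09, adjusted p = 0.00036). The D6 libraries of these 4 genes were all below the D5 libraries. In the pluripotency list 1 of 15 genes rose and 2 fell, and 3 reached 1 CPM. The rises came to 0 without NeuDet-D6 replicate 1 or NeuDet-D5 replicate 1 and 2 without NeuDet-D6 replicate 3, and the falls to 1 without NeuDet-D6 replicate 1 or NeuDet-D5 replicate 3. DNMT3B, the DNA methyltransferase gene of early embryos, was at 128, 128 and 157 CPM on D6 and 207, 183 and 185 CPM on D5 (log2 fold change -0.48 ± 0.08, adjusted p = 4.2e-06). Among imprinted genes 1 of 11 rose and 3 fell. The rise came to 0 without NeuDet-D5 replicate 2 and 2 without NeuDet-D6 replicate 3, and the falls to 5 without NeuDet-D6 replicate 3. PEG10, a gene derived from a retrotransposon, was at 275, 271 and 269.8 CPM on D6 and 458, 443 and 460.4 CPM on D5 (log2 fold change -0.74 ± 0.08, adjusted p = 7.3e-09). MEST, a hydrolase gene whose exons are overlapped over 27.6% of their length, was at 74.2, 66.8 and 65.9 CPM on D6 and 98.1, 116 and 108 CPM on D5 (log2 fold change -0.64 ± 0.10, adjusted p = 3.5e-06).

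**Figure D4:**
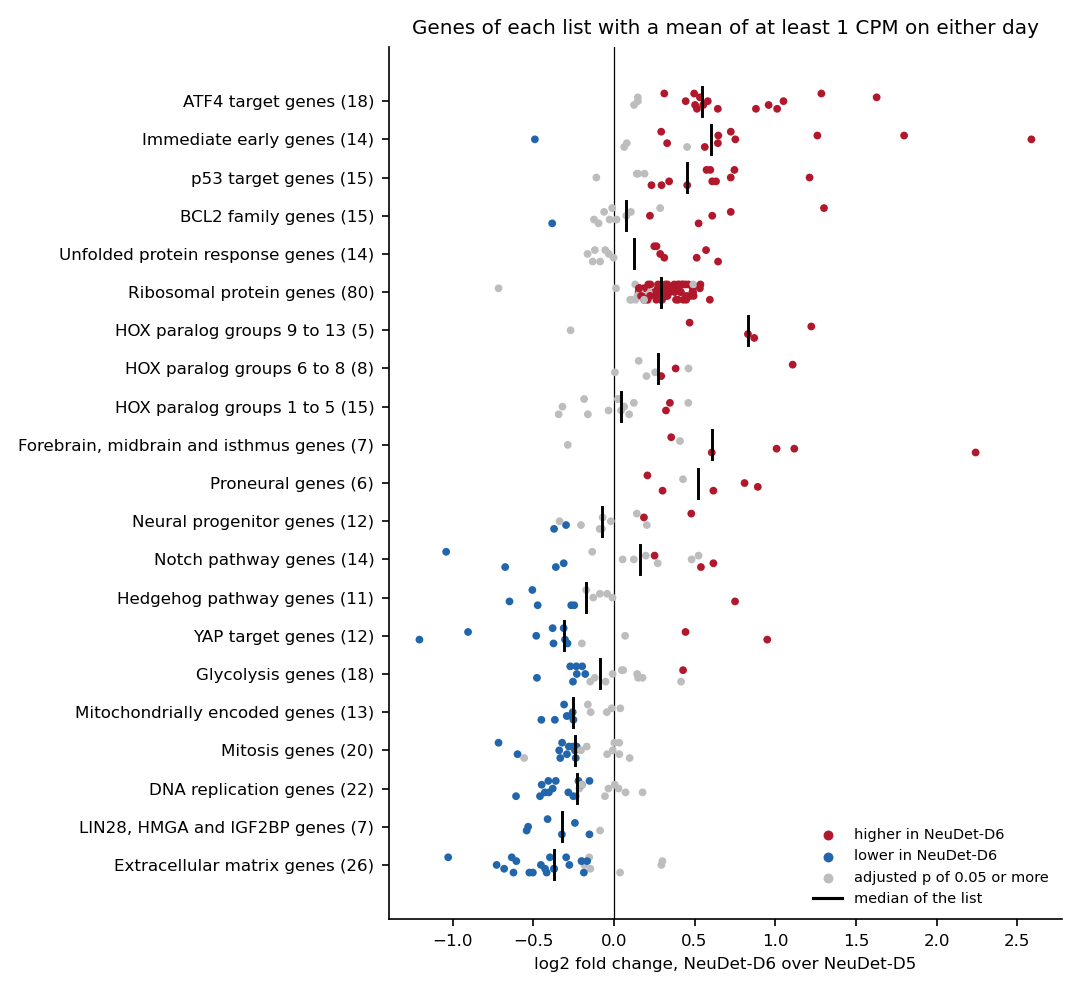
Log2 fold change, D6 over D5 (horizontal axis), of the members of 21 lists with a mean of at least 1 CPM on either day, their number in parentheses. Each point is a gene, red where called higher on D6, blue where called lower and grey where neither, and bars mark list medians. The ATF4, immediate early and p53 lists lie mostly right of 0, and the extracellular matrix list mostly left.

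Metabolic lists were mixed. Of 18 glycolysis genes 1 rose and 7 fell. The falls came to 4 without NeuDet-D6 replicate 3, to 3 with the length trend removed and to 1 in the 6 libraries alone and 1 against a fold change of 1.2, and the rise to 0 without NeuDet-D6 replicate 1, NeuDet-D6 replicate 2 or NeuDet-D5 replicate 3 and 3 without NeuDet-D6 replicate 3. The glucose transporter gene SLC2A3 was at 282, 273 and 283 CPM on D6 and 397, 391 and 379.8 CPM on D5 (log2 fold change -0.48 ± 0.06, adjusted p = 6.6e-09). SLC2A1, which is in the hypoxia list, was at 114, 131 and 118 CPM on D6 and 205, 173 and 166 CPM on D5 (log2 fold change -0.59 ± 0.07, adjusted p = 9.7e-09). That list had 4 rises and 3 falls among 18 genes. The upward calls came to 2 without NeuDet-D5 replicate 3, and the falls to 1 without NeuDet-D5 replicate 2 or NeuDet-D5 replicate 3 and to 1 with the length trend removed. VEGFA, a growth factor of blood vessels, was at 62.0, 59.5 and 73.8 CPM on D6 and 46.1, 41.4 and 43.9 CPM on D5 (log2 fold change 0.57 ± 0.08, adjusted p = 2.2e-07). Cholesterol synthesis had 4 rises and 7 falls among 24. Rises numbered 2 without NeuDet-D6 replicate 2 and 7 without NeuDet-D6 replicate 3, and falls numbered 4 without NeuDet-D6 replicate 2 or NeuDet-D5 replicate 3 and 4 with the length trend removed. In the 6 libraries alone 0 rose and 2 fell, and against a fold change of 1.2 none of the list rose or fell. The members included DHCR7 at -0.41 (adjusted p = 4.2e-06) and FDFT1 at 0.21 (adjusted p = 0.0012, or 0.1 in the 6 libraries alone) on the log2 scale.

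Mitochondrial genes aside, the largest differences in CPM included ribosomal proteins and actins. Of 81 ribosomal protein genes tested, 67 rose and 0 fell (median 0.29), and 51 to 72 rose as libraries were left out in turn. The count was 31 in the 6 libraries alone and 7 against a fold change of 1.2. With the length trend removed, which was partial for short genes, 61 rose. Together they took 7.88% to 8.80% of counts in the D6 libraries and 6.36% to 7.06% in the D5 libraries. RPL13A was at 3424, 3724 and 2753 CPM in the NeuDet-D6 libraries, against 2207, 2386 and 1965 CPM in the NeuDet-D5 libraries (log2 fold change 0.59 ± 0.09, adjusted p = 1.3e-06). The next were RPS19, RPS3, RPL13 and RPLP0, at 0.53, 0.45, 0.46 and 0.28 on the log2 scale, and the adjusted p of RPLP0 was 0.055 in the 6 libraries alone. Ribosomal protein genes have many processed pseudogenes, and reads shared with them could have been lost or misplaced. In the opposite direction, ACTG1, a non-muscle actin, was at 2544, 2377 and 2493 CPM on D6 and 3331, 3162 and 2948 CPM on D5 (log2 fold change -0.35 ± 0.06, adjusted p = 1e-05). ACTB, the other, was at 2979, 3096 and 2655 CPM on D6 and 3706, 3647 and 3266 CPM on D5 (log2 fold change -0.28 ± 0.06, adjusted p = 0.00021, or 0.081 in the 6 libraries alone). FLNA, an actin crosslinker, was at 789, 889.7 and 1066 CPM on D6 and 1616, 1201 and 1324 CPM on D5 (log2 fold change -0.59 ± 0.09, adjusted p = 1.2e-06). PRKDC, a DNA repair kinase gene, was at 643, 641 and 694 CPM on D6 and 1097, 945 and 1119 CPM on D5 (log2 fold change -0.68 ± 0.08, adjusted p = 4.1e-09). Both are long genes, and with the length trend removed their log2 fold changes were -0.50 and -0.52.

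Of the 13 mitochondrially encoded genes 0 rose and 7 fell (median -0.26). Falls numbered 1 without NeuDet-D6 replicate 2 and 3 without NeuDet-D5 replicate 2 or NeuDet-D5 replicate 3. They numbered 3 in the 18 NeuDet libraries alone, 2 in the 6 libraries alone, 4 there with a replicate block and 0 against a fold change of 1.2. MT-CYB, the cytochrome b gene, was at 3068, 2533 and 3194 CPM on D6 and 3768, 3895 and 3674 CPM on D5 (log2 fold change -0.37 ± 0.08, adjusted p = 0.00092). MT-CO1 overlapped between the days at 12210.1, 9023 and 10195 CPM on D6 and 10592, 12128 and 12016 CPM on D5 (log2 fold change -0.14 ± 0.07, adjusted p = 0.17).

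Markers of other cell types were low on both days. The 10 neural crest markers summed to 58.9 to 66.6 CPM on D6 and 58.6 to 60.8 CPM on D5, 3 of them rose and 1 fell, and the rises came to 1 without NeuDet-D6 replicate 3, NeuDet-D5 replicate 2 or NeuDet-D5 replicate 3. The defining gene SOX10 averaged 1.13 CPM on D6 and 0.754 CPM on D5, and FOXD3 had 33, 26 and 17 counts on D6 and 14, 16 and 10 on D5. TFAP2B, a crest gene also used in dorsal neurons, was at 7.16, 6.56 and 7.43 CPM on D6 and 4.60, 4.01 and 3.94 CPM on D5 (log2 fold change 0.75 ± 0.16, adjusted p = 0.00045). Paraxial mesoderm markers summed to 10.6 to 13.2 CPM on D6 and 7.84 to 9.28 CPM on D5, with 2 rises among 8 tested, or 1 without NeuDet-D6 replicate 2, NeuDet-D5 replicate 1 or NeuDet-D5 replicate 3. Of the genes that define that tissue, TBX6 averaged 0.765 CPM on D6 and 1.04 CPM on D5, and MSGN1 had 26, 34 and 14 counts on D6 and 16, 14 and 25 on D5. Endoderm markers summed to 0.292 to 0.535 CPM on D6 and 0.391 to 0.603 CPM on D5 (0 called). Endothelial and blood markers summed to 1.29 to 1.67 CPM on D6 and 3.09 to 3.54 CPM on D5 (1 fell, TEK). Surface ectoderm markers summed to 5.08 to 8.86 CPM on D6 and 6.67 to 7.78 CPM on D5 (0 called, or 1 lower without NeuDet-D6 replicate 3). The part of such cells in the results was not tested.

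The D6 step was set against an earlier step of the same length in the same medium, NeuDet-D4 against NeuDet-D3, which shares no library with it. The difference of the steps passed the test for 4464 of 21597 genes (20.7%), positive for 1985 (9.19%) and negative for 2479 (11.5%). It was taken for the 3 genes with the largest rises and the 3 with the largest falls among those that met the naming rule, which asks for at least 5 CPM in each library of the higher day. CHAC1 had a log2 fold change of 1.63 in the D6 step and -0.97 in the D4 step, a difference of 2.59 ± 0.15 (adjusted p = 4.3e-17). EGR1 had 2.59 and 0.85 in the same order, a difference of 1.74 ± 0.20 (adjusted p = 3.4e-08). For GPR155 the difference was 1.84 ± 0.26 (adjusted p = 6.4e-07). ADAMTS17 differed by -1.79 ± 0.20 (adjusted p = 2.9e-09), MICAL2 by -1.74 ± 0.21 (adjusted p = 1.4e-07) and TRANK1 by -1.28 ± 0.22 (adjusted p = 2.1e-05).

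Across the days, group means (± SD, n = 3) show where the D6 values stood. HOXB7 increased on each day of NeuDet, at 8.003 ± 0.165 CPM on D1, 32.8 on D3, 67.1 on D5 and 144 ± 20.8 CPM on D6, and was at 34.8 ± 2.84 CPM in hSCNPC-P5. ABCB1 also had its highest mean on D6, with 7.65 ± 0.394 CPM on D1 and 69.8 ± 2.03 CPM on D6. EGR1 was at 8.829 ± 0.0651 CPM on D1 and 12.05 ± 0.322 CPM on D4. It was then at 3.496 ± 0.398 CPM on D5, its lowest NeuDet mean, and at 21.03 ± 4.31 CPM on D6. CHAC1 was at 55.2 ± 1.67 CPM on D1, 12.9 ± 0.838 CPM on D4, 15.7 ± 1.98 CPM on D5 and 48.5 ± 9.20 CPM on D6, and at 18.6 ± 0.912 CPM in hSCNPC-P5, so that D1 and D6 were the higher of these days. GDF15 was at 71.9 ± 2.30 CPM on D1, 20.2 ± 0.687 CPM on D5, 46.8 ± 5.61 CPM on D6 and 18.1 ± 1.29 CPM in hSCNPC-P5. CLDN6 decreased on each day, with 256 ± 8.04 CPM on D1, 11.2 ± 1.89 CPM on D5 and 5.20 ± 0.484 CPM on D6. CCN2 was at 30.9 ± 0.0667 CPM on D4, 8.19 ± 0.546 CPM on D5 and 3.57 ± 0.246 CPM on D6, and at 27.5 ± 1.79 CPM in hSCNPC-P5. CDX2 and NKX1-2 stood at 492 ± 11.3 CPM and 106 ± 16.8 CPM on D6 and at 0.186 ± 0.199 CPM and 0.246 ± 0.0446 CPM in hSCNPC-P5. These are descriptions, with no test across the days.

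**Figure D5:**
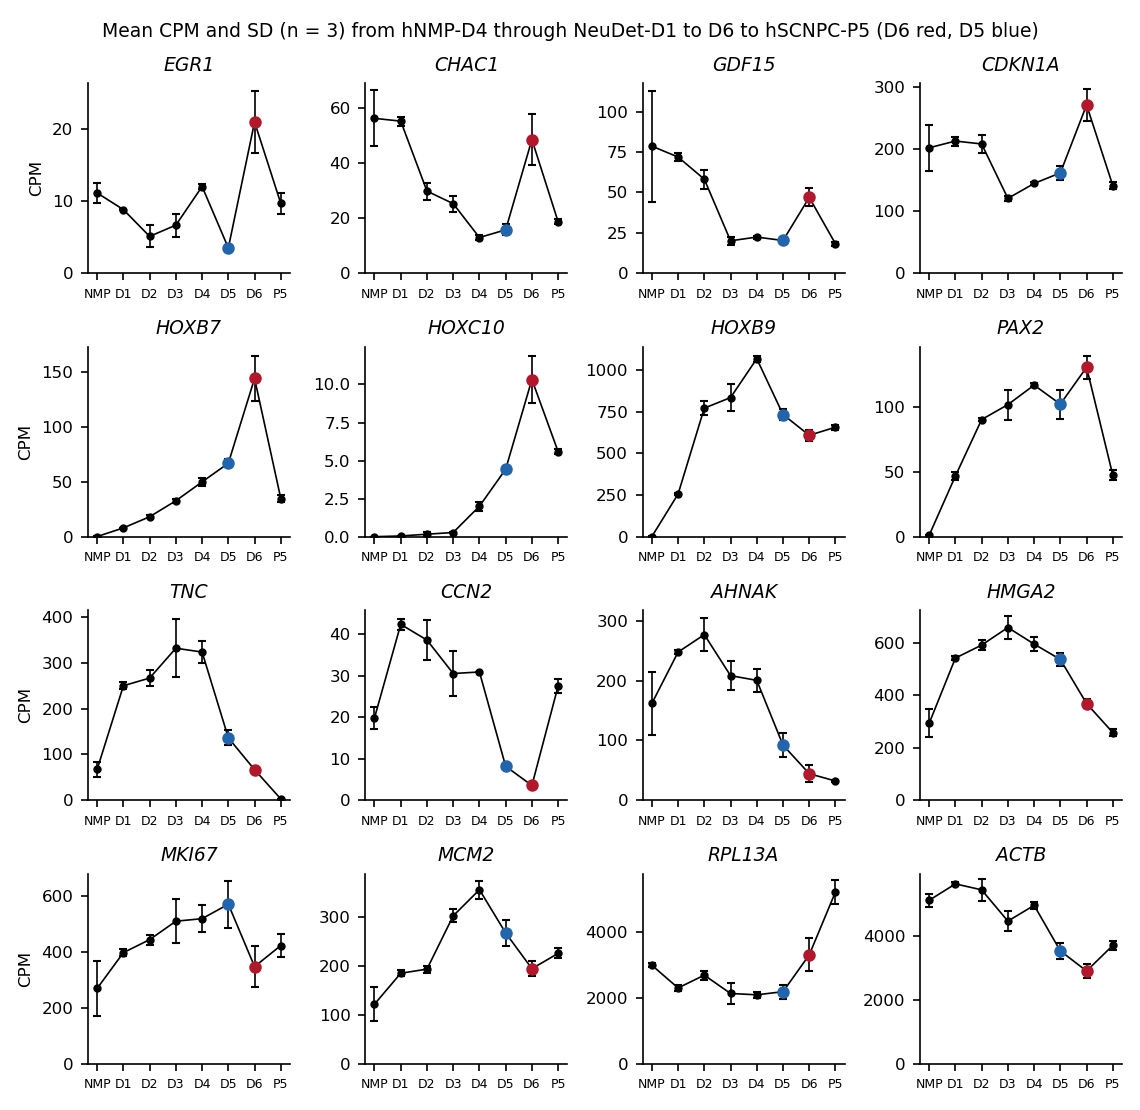
Mean CPM (vertical axis, from 0) of 16 genes with SD (n = 3) in hNMP-D4 (NMP), NeuDet-D1 to NeuDet-D6 and hSCNPC-P5 (horizontal axis, in time order), with D6 in red and D5 in blue. EGR1, HOXB7 and HOXC10 have their highest mean on D6, and CCN2 is lower on D6 than on any NeuDet day before it.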

How the data were processed

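Bulk mRNA of each library had been sequenced as paired-end reads. The deposited values are whole-number counts per gene, which the authors made, per the study's methods and the submitters' processing notes, by trimming with fastp, aligning to hg38 with HISAT2 (2.1.0) and counting with featureCounts (1.5.3). The GENCODE release and the strand setting are not given in the sources used here. A second table of counts, of other samples, was not used. Of 60603 genes 99.44% had a GENCODE v44 symbol.

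All 48 libraries of the table that holds both days (embryonic stem cells to late hSCNPC passages) were fitted together with 1 coefficient per group in edgeR (4.0.16, R 4.3.3), with filterByExpr, TMM scaling and the robust quasi-likelihood F test. Adjusted p-values are Benjamini-Hochberg values over all 21597 genes tested, with a threshold of 0.05, and ± after a log2 fold change is a standard error. Sharing the fit takes the spread from all groups. The 3 libraries of a group limit precision, and no pair of the 6 libraries was a copy: chi-squared per degree of freedom was 10.46 to 22.46 within a day. Tested on simulated data for this comparison (21346 genes), the procedure found 28% of 50 genes changed 1.25-fold, 68% at 1.5-fold, 90% at 2-fold and 96% at 4-fold, and called 7 of 21146 unchanged genes. Each simulated gene was drawn on its own, without the length tilt of the real libraries. These shares therefore do not give the error rate of the real calls.

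The genes named in the text are the 15 in each direction with the largest fold change among called genes whose lowest library on the higher day had at least 5 CPM and lay above every library of the other day, the 5 in each direction with the largest difference in CPM, genes that the study uses to define these cells, and members of gene lists, those under 1 CPM on both days being given by counts, with a log2 fold change for those that were called. Other names are marked in the text, and some genes are not reported here. The comparison and all lists were chosen with earlier results of these data known. Alternatives were RLE and upper quartile scaling, total counts, no filter, a filter at 1 CPM, DESeq2 (1.42.0), the 18 NeuDet libraries or the 6 libraries alone, a replicate block, glmTreat (limma 3.58.1 and edgeR) at a fold of 1.2, each library left out, and, chosen after seeing the data, the length trend of each library removed by a smooth with a span of 0.3. Promoters came from RefSeq. Gene positions and exon lengths are those of GENCODE v44.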

Additional observations from a re-analysis of the deposited data

Results flagged for a closer look

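The steps of NeuDet-D6 over NeuDet-D5 and of NeuDet-D4 over NeuDet-D3 differed for all 6 genes in which the difference was taken, which had the 3 largest rises and the 3 largest falls of the D6 step among genes with at least 5 CPM in each library of the higher day and no overlap of the days, and so were chosen for a large D6 step. The difference, D6 step minus D4 step on the log2 scale, was tested in the same edgeR fit. It was 2.59 for CHAC1 (1.63 in the D6 step, -0.97 in the D4 step), 1.84 for GPR155 (1.50 and -0.34) and 1.74 for EGR1 (2.59 and 0.85). It was -1.79 for ADAMTS17 (-1.34 and 0.45), -1.74 for MICAL2 (-1.40 and 0.35) and -1.28 for TRANK1 (-1.45 and -0.16). The signs of the steps were opposite in 4 of these genes and the same in EGR1 and TRANK1. All values were averages over 3 libraries a day, too few for a search for single outlying libraries.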

How the results depend on the processing

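The 6 libraries alone called 1093 genes higher and 1032 lower, with 72 lower by at least 2-fold, and with a replicate block 1279, 1152 and 78. These fits tested fewer genes (18367) and had fewer samples. A test against a fold change of 1.2 called 371 higher and 419 lower, 80 and 70 of them by at least 2-fold. Leaving out 1 library gave 1604 to 2595 genes higher, 1720 to 2669 lower, 140 to 153 at least 2-fold higher, 86 to 198 at least 2-fold lower and 3116 to 5085 for the difference of the steps. The other scalings and filters, DESeq2 (2321 and 2840), the 18 NeuDet libraries, total counts (2567 and 2212) and the length trend removed (2462 and 2077) stayed within 1.5 times of the 2229 and 2576. No called gene listed for the text changed sign. Genes that were not called and lay near 0 did, in at least 1 alternative, namely CCNB1, CDK1, HOXC8, HSPA5, MT-CO2, PAX6 and PTCH1, and so did NOTCH1, PCNA and POU5F1 where 1 library was left out. With the length trend removed, the median of HOX groups 1 to 5 was -0.02 in place of 0.04, that of heat shock genes 0.06 in place of -0.01, and that of mesenchymal genes 0.04 in place of -0.04.

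Of the 159 called genes among 186 listed for the text, 0 lost the call under the other scalings and filters, DESeq2, the 18 NeuDet libraries, the block in the fit of 48 libraries or the length trend removed, 12 lost it in the 6 libraries alone (AHNAK, RPLP0, ACTB, HOXC6, JAG1, CCND1, COX6C, SOX11, DUSP1, MYC, FDFT1 and HSPG2), 5 there with the block (the last 5 of these) and 44 against a fold of 1.2. Leaving out a library ended calls of NKX6-1, HOXC6, HOXA10 and MYC only. In some alternatives a call was gained by TOP2A, HOXB9, PHGDH, PSAT1, MDM2, NES or MT-CO1. The labels number the replicates, and libraries of the same number deviated together with correlations of -0.294, 0.218 and 0.245. Libraries of different numbers had -0.46 to 0.366. So few correlations cannot tell if the numbers pair libraries. The block in the fit of 48 libraries gave 2240 higher and 2564 lower. Precision is limited by 3 libraries a day and, below 1 CPM, by few counts.

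Among the 104 counts of rises and falls in lists, those that moved by over 1.5 times numbered 2 under RLE scaling, 3 under upper quartile scaling, 7 each under total counts and without a filter, 5 under the 1 CPM filter, 8 under DESeq2, 13 in the 18 NeuDet libraries, 3 under the block and 16 with the length trend removed. Rises that moved in the 6 libraries alone came to 0 for the HOX groups 1 to 5, neural progenitor, Wnt ligand-receptor, glycolysis, cholesterol synthesis, heat shock and actomyosin lists, 1 for the spinal neuron factor and gliogenic lists, 2 for the pan-neuronal and retinoic acid pathway lists, 3 for the unfolded protein response list, 6 for the respiratory chain list and 31 for the ribosomal protein list. Falls that moved there came to 0 for the spinal neuron factor, Wnt target, retinoic acid pathway, immediate early, heat shock, D cyclin-inhibitor and tRNA synthetase lists, 1 for the HOX groups 1 to 5, MEIS-PBX, pluripotency, neural progenitor, hypoxia-response and glycolysis lists, 2 for the Notch pathway, Wnt ligand-receptor, cholesterol synthesis and mitochondrially encoded lists, 3 for the hedgehog pathway list, 4 for the YAP target list, 5 for the mitosis list, 8 for the DNA replication list and 12 for the extracellular matrix list. Rises that moved against a fold change of 1.2 came to 0 for the HOX groups 1 to 5, pluripotency, neural progenitor, spinal neuron factor, gliogenic, Wnt ligand-receptor, glycolysis, cholesterol synthesis, heat shock, mesenchymal transition, imprinted, paraxial mesoderm and actomyosin lists, 1 for the HOX groups 6 to 8, dorsal progenitor, ventral progenitor, Notch pathway, FGF-ERK feedback, YAP target, D cyclin-inhibitor, neural crest and tRNA synthetase lists, 2 for the HOX groups 9 to 13, pan-neuronal, retinoic acid pathway, hypoxia-response, unfolded protein response and respiratory chain lists, 3 for the brain patterning, proneural and BCL2 family lists, 5 for the small nucleolar RNA host list and 7 for the p53 target and ribosomal protein lists. Falls that moved against it came to 0 for the MEIS-PBX, neuromesodermal progenitor, neural progenitor, Wnt target, FGF-ERK feedback, retinoic acid pathway, ephrin-Eph, immediate early, cholesterol synthesis, heat shock, D cyclin-inhibitor, BCL2 family, mitochondrially encoded, neural crest, tRNA synthetase and small nucleolar RNA host lists, 1 for the pluripotency, pan-neuronal, spinal neuron factor, Wnt ligand-receptor, hedgehog pathway, YAP target, hypoxia-response, glycolysis and mesenchymal transition lists, 2 for the LIN28-HMGA-IGF2BP, Notch pathway, mitosis and DNA replication lists, 9 for the extracellular matrix list and 12 for the actomyosin list.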

Other observations

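Several groups outside the lists above were drawn up after values had been seen, so their counts are descriptions. Genes of actin filaments, myosin and focal adhesions fell most often, 22 of 32 tested with 1 higher (median -0.34, or -0.33 with the length trend removed). The rise came to 0 without NeuDet-D6 replicate 1, NeuDet-D6 replicate 2, NeuDet-D5 replicate 1 or NeuDet-D5 replicate 3. Leaving out each library in turn left 20 to 23 lower, and the count was 12 against a fold change of 1.2. They are long genes, with a median exon length of 8317 bases. In the length decile from 7285 to 8981 bases, 20.9% of genes were called lower and 8.57% higher. MYH10, a non-muscle myosin heavy chain gene, was at 401, 428 and 419.9 CPM on D6 and 615, 541 and 585 CPM on D5 (log2 fold change -0.48 ± 0.06, adjusted p = 4.9e-08). VCL, which encodes the focal adhesion protein vinculin, was at 196, 185 and 246 CPM on D6 and 321, 279.6 and 319 CPM on D5 (log2 fold change -0.55 ± 0.08, adjusted p = 2.4e-07).

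Host genes of small nucleolar RNAs, which guide the modification of ribosomal RNA, rose in 12 of 15 cases and 1 fell, or 0 without NeuDet-D5 replicate 3 (median 0.37). GAS5, one of these hosts, was at 370.5, 364 and 344 CPM on D6 and 284, 282 and 269 CPM on D5 (log2 fold change 0.37 ± 0.07, adjusted p = 4.5e-05). Nuclear-encoded subunits of respiratory complexes III and IV rose in 15 of 20 cases and 0 fell (median 0.30), while the count was 6 in the 6 libraries alone and 2 against a fold change of 1.2. UQCRQ, a complex III subunit gene, was at 56.3, 60.4 and 43.004 CPM on D6 and 38.6, 43.98 and 32.7 CPM on D5 (log2 fold change 0.47 ± 0.09, adjusted p = 8.2e-05). These are short genes, with a median exon length of 2053 bases, and 14 rose with the length trend removed. That removal was partial at this length, and whether these rises were part of the tilt was not tested.

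Cytosolic aminoacyl-tRNA synthetases, which load amino acids onto tRNAs and several of which ATF4 induces, had 4 rises and 1 fall among 19 tested (median 0.07), or 8 rises with the length trend removed and 7 without NeuDet-D6 replicate 3. The fall came to 0 without NeuDet-D6 replicate 1, NeuDet-D6 replicate 2, NeuDet-D5 replicate 2 or NeuDet-D5 replicate 3. Of 11 NF-kB genes 3 rose, RELB and the inhibitor genes NFKBIB and NFKBIE, and 0 fell. These groups span both directions and none was tested as a set.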
